A study of Mus musculus with 8 samples.

Results

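The locus of miR-296 and miR-298 comprises 2 miRNA hairpins, Mir298 and Mir296, beside the imprinted Nespas and Gnas genes of mouse chromosome 2, and their 4 mature arms are listed in the deposited count table of 1915 mature miRNAs. The 4 arms were chosen by name, mmu-miR-298-5p, mmu-miR-298-3p, mmu-miR-296-5p and mmu-miR-296-3p, with their counts in all 8 libraries already known. Their levels and changes are therefore given as a description and carry no test. The libraries are small RNA from mouse embryonic stem cells of 129/Ola background, in 4 groups of 2. Wild type cells are the E14 line (A and B). The Ago2 knockout group holds 2 separate lines (Ago2KO1 and Ago2KO2), which lack AGO2, the Argonaute protein that loads miRNAs and can slice their targets. The remaining groups are 1 line labelled Ago2KO1-AGO1 in its genotype, which carries an inducible AGO1 transgene in the knockout background, without doxycycline (A and B) and with doxycycline at 1 µg/mL (A and B). All 3 groups other than wild type thus lack Ago2. This genotype label places the AGO1 line in the background of knockout line 1, and the uninduced and induced libraries are the same line. The labels do not name the promoter of the transgene, nor do they say whether A and B were separate cultures, so the spread between them may be technical.

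Imprinted genes are expressed from 1 parental chromosome. Nespas is a non-coding RNA read antisense to the Nesp promoter of Gnas, a gene for a G protein subunit, and it is transcribed from the paternal chromosome. miR-296 and miR-298 are reported to come from the same paternally expressed transcription. In mouse embryonic stem cells miR-296 is known, with miR-134 and miR-470, for binding the coding sequence of mRNAs for pluripotency factors, Nanog among them, as cells differentiate. miR-298 is known from mouse neural cells for repressing Bace1, a protease that cuts the amyloid precursor protein. Each hairpin gives a 5p and a 3p arm, and the arm that an Argonaute protein keeps is the one that accumulates.

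The mature sequences are shown because the arms are told apart by them. They are from RefSeq (GRCm38.p6), where all 4 names matched, written 5′ to 3′ with the seed (bases 2 to 8), the part that pairs with targets, in capitals.
mmu-miR-298-5p: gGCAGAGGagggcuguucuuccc
mmu-miR-298-3p: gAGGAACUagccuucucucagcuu
mmu-miR-296-5p: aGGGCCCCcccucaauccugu
mmu-miR-296-3p: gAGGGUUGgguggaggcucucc
The 4 seeds differ from each other, and 0 other mature miRNAs among the 1679 names of the RefSeq table share any of them. The longest run of bases shared by any pair of the arms is 5, so reads of full length are not shared among the 4. Of the 4 arms, 3 are rich in G and C: 65.2% of bases in miR-298-5p, 66.7% in miR-296-5p and 68.2% in miR-296-3p, against a median of 47.6% over the 384 tested miRNAs that matched the table. miR-298-3p, at 50.0%, lies near that median. Both arms of miR-298 and miR-296-3p begin with G, a first base found in 10.9% of the 384.

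The hairpins show where the arms lie, with the mature arms in capitals.
Mir298: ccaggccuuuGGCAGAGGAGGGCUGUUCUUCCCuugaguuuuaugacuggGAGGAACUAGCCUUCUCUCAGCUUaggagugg
Mir296: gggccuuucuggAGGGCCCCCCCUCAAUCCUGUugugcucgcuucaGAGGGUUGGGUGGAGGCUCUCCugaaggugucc
On the minus strand of GRCm38, Mir298 lies at chr2:174267504-174267585 and Mir296 at chr2:174267047-174267125. In the direction of transcription Mir298 comes first and Mir296 follows after 378 bases. In GENCODE vM21 the 539 bases that hold both hairpins overlap 0 other annotated genes, exonic or intronic. Nespas (chr2:174281237-174295436, same strand) is annotated to end 13.7 kb before Mir298, so the annotation places both hairpins beyond the end of Nespas and not inside it.

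**Figure D1:**
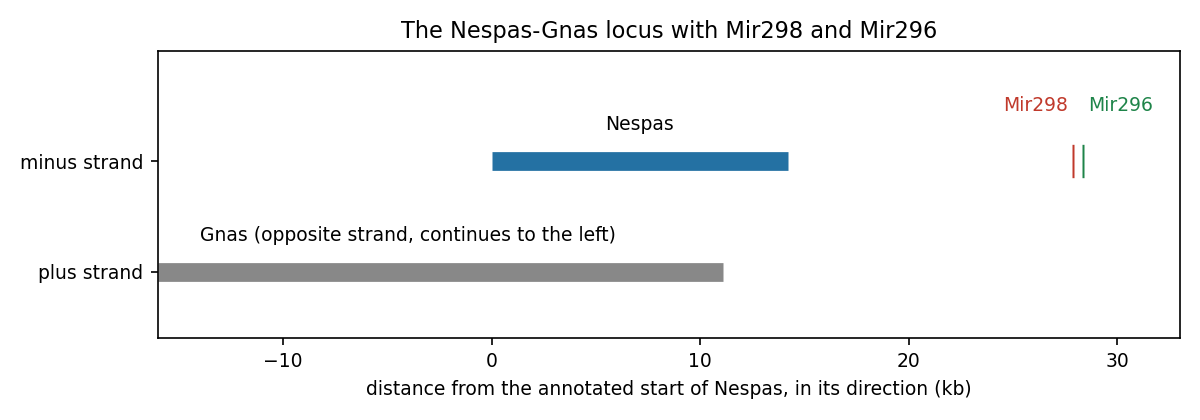
Map of the Nespas-Gnas locus, with distance from the annotated start of Nespas in kb on the x axis and the 2 strands on the y axis. Mir298 starts 27.9 kb from the start of Nespas and Mir296 follows 378 bases after Mir298; Gnas is on the opposite strand and runs on beyond the left edge.

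Totals of miRNA counts ranged from 163467 (knockout line 2) to 1326638 (induced A) per library. Levels are given as CPM, the count relative to the library's TMM-scaled total, so that they show each miRNA against the others and not its amount per cell. In bulk RNA, fewer cells with a miRNA and less of it per cell cannot be told apart. Markers of embryonic stem cells were miR-290a, miR-291a, miR-292a, miR-294, miR-295 and the miR-302 family, a part of their clusters. They were all detected (18 of 18 arms) and held 22.6 to 28.5% of counts in every library. Of 7 muscle marker arms 1 had a count. Blood markers (4 of 6 arms detected, both miR-223 arms at 0) held 0.164 to 0.188% of counts in wild type, 0.651 to 0.790% in the knockout, 0.649 to 0.715% in the uninduced and 0.333 to 0.354% in the induced line. Fibroblast markers (5 of 6 detected, miR-143-5p at 0) held 0.285 to 0.375%, 0.0526 to 0.0549%, 0.0356 to 0.0420% and 0.168 to 0.181% in the same order. Neural markers (6 of 7 detected) held 0.159 to 0.177%, 0.120 to 0.132%, 0.0973 to 0.134% and 0.0920 to 0.109%. Liver and endoderm markers (2 of 4 detected, both miR-122 arms at 0) held 0.159 to 0.174%, 0.253 to 0.278%, 0.233 to 0.245% and 0.211 to 0.221%. Their part in the results was not tested.

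miR-298-5p was the abundant product of the locus, and its level differed most among the groups. Wild type A gave 12998 counts and B 15205, knockout line 1 gave 724 and line 2 gave 150. The uninduced AGO1 cells gave 1550 (A) and 585 (B), the induced cells 34985 (A) and 32097 (B). Scaled to CPM, wild type held 15422 and 13677, the knockout 1806 and 755, the uninduced cells 2063 and 1934, and the induced cells 29924 and 31986. The order of the groups was knockout, uninduced, wild type, induced, and no 2 of the groups overlapped, though knockout line 1 lay within 1.11-fold of the uninduced mean. It took 1.37 and 1.36% of all counts and ranked 19 in abundance in both wild type libraries. It stood at rank 46 and 77 in knockout lines 1 and 2, 43 and 46 without doxycycline, and 8 and 7 in the induced libraries, where it took 2.64 and 2.87% of counts.

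miR-298-3p, the other arm of the same hairpin, was almost absent from the counts. Both wild type libraries had 0 counts, knockout line 1 had 1 and line 2 had 0, uninduced A had 0 and B had 1, and induced A had 1 and B had 3. A count of 0 allows up to 3 counts, which is 2.70 to 15.1 CPM in the libraries where it was at 0. It did not pass the filter on low counts, and no fold is given for it. Of all miR-298 counts the 5p arm held 100% in wild type A (95% exact Clopper-Pearson interval 99.97 to 100%) and 99.9% in knockout line 1 (99.2 to 100%). In knockout line 2 its share was 100% with an interval of 97.6 to 100%, from 150 counts. Intervals and floors here account for counting error alone, as PCR copies are not told from separate molecules. No change in the arm balance of miR-298 beyond these intervals was seen, and a smaller one was not detectable at this depth.

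miR-296-5p had group means closer to each other than those of the other abundant arms. In CPM, wild type A held 237 and B 185, knockout line 1 held 215 and line 2 held 80.5, uninduced A 197 and B 235, and induced A 228 and B 319. The groups overlapped in all 4 comparisons, and only knockout line 2, where the value rests on 16 counts, lay below all the others. Group means ran from 148 ± 94.8 CPM in the knockout over 211 ± 36.8 in wild type and 216 ± 26.7 without doxycycline to 273 ± 64.6 with it (SD, n = 2 each), so neighbours in that order did not differ beyond their spread.

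miR-296-3p, the opposite arm, was lowest in wild type. In CPM, wild type A held 295 and B 296, knockout line 1 held 973 and line 2 held 438, uninduced A 921 and B 1022, and induced A 1064 and B 1248. All 6 libraries without Ago2 were higher than both wild type libraries, a pattern whose share over all tested miRNAs was not counted. Against wild type, 34.3% of tested miRNAs were higher without overlap in the knockout and 40.0% in the induced line. Nothing is read from the pattern. Means were 296 ± 0.346 CPM in wild type, 705 ± 379 in the knockout, 971 ± 71.1 without and 1156 ± 129.8 with doxycycline (SD, n = 2 each). The knockout and uninduced groups overlapped, while the uninduced and induced groups did not, with 1022 CPM in the highest uninduced and 1064 in the lowest induced library.

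**Figure D2:**
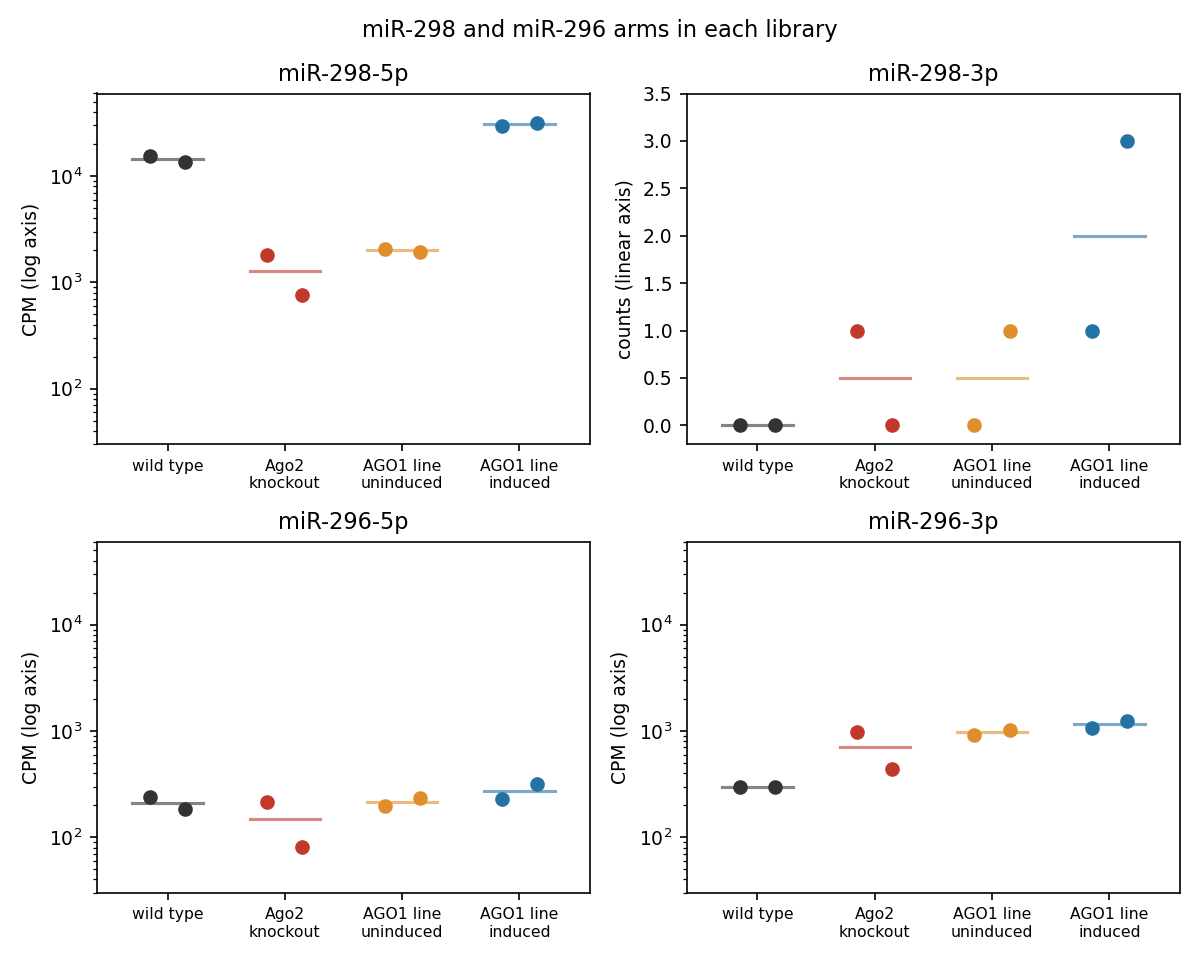
Level of each arm in each of the 8 libraries (points) with the mean of each group of 2 (lines), in CPM on a log axis, or in counts on a linear axis for miR-298-3p. miR-298-5p drops from 14549.6 CPM in wild type to 1280.4 in the knockout and stands at 30955 with AGO1 induced, whereas miR-296-3p is at 296 CPM in wild type and 438 to 1248 in every other library.

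Knockout against wild type is the comparison that shows the arms without AGO2. miR-298-5p went from 14549.6 ± 1234 CPM in wild type to 1280.4 ± 744 in the knockout (SD, n = 2 each), 11.3-fold lower by edgeR, with a log2 fold change of -3.50 ± 0.34. The SE given with each log2 fold change is approximate and was derived from edgeR's F statistic. Over all 475 miRNAs tested, that change was number 18 from the lowest. By the same fit miR-296-3p was 2.41-fold higher (log2 fold change 1.27 ± 0.31), and miR-296-5p had a log2 fold change of -0.45 ± 0.39. Of the 3 arms tested 1 was called lower and 1 higher at an adjusted p under 0.05 (edgeR quasi-likelihood test), beside 57.7% of all tested miRNAs called, 32.2% lower and 25.5% higher. Groups of libraries that do not overlap were found for 42.9% of miRNAs on the lower and 34.3% on the higher side. Nothing is read from these shares, since the arms were chosen with the contrast known.

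The knockout lines differed from each other at this locus. Line 1 was 2.39-fold above line 2 for miR-298-5p, 2.67-fold for miR-296-5p and 2.22-fold for miR-296-3p in CPM. So all 3 measured arms were lower in line 2, by similar factors. The median ratio over 446 tested miRNAs with counts in both was 0.992, a value that TMM scaling itself tends to produce. How many other miRNAs differed as much between the lines was not counted. Over all tested miRNAs the knockout lines were the least alike libraries of any group (Spearman correlation 0.902, against 0.973 to 0.985). Leaving out line 1 put the log2 fold change of miR-298-5p at -4.27, and leaving out line 2 put it at -2.97. For miR-296-3p the value without line 1 was 0.57, no longer called, and for miR-296-5p it was -1.38 without line 1 and 0.060 without line 2. Line 2 is also the shallowest library, and the part of depth in this difference was not tested.

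The uninduced AGO1 line was compared with the knockout to see what the engineered line shows before the drug is added. miR-298-5p stood at 1999 ± 91.2 CPM, against 1280.4 ± 744 in the knockout lines, a log2 fold change of 0.63 ± 0.31. The corresponding values were 0.48 ± 0.40 for miR-296-5p and 0.44 ± 0.31 for miR-296-3p. Of the 3 arms 0 were called, and 0.0% of all tested miRNAs were called either way by edgeR (72 of 475 at an unadjusted p under 0.05; DESeq2 called 8). miR-298-5p libraries did not overlap, higher in the uninduced line, as was so for 22.1% of all tested, while 22.5% were lower without overlap. Against knockout line 1 alone, the line in the genotype label of the AGO1 cells, the uninduced mean was 1.11-fold for miR-298-5p, 1.01-fold for miR-296-5p and 0.998-fold for miR-296-3p. Without line 1 all 3 log2 fold changes exceeded 1 (1.41 for both 5p arms and 1.15 for miR-296-3p) and were called. Without line 2 they were 0.12, -0.029 and -0.027 for miR-298-5p, miR-296-5p and miR-296-3p.

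The induced cells were compared with the uninduced ones to show the arms with and without doxycycline in the same Ago2 knockout line. The level of AGO1 itself was not analysed here. miR-298-5p went from 1999 ± 91.2 to 30955 ± 1458 CPM (SD, n = 2 each), 15.5-fold higher by edgeR, with a log2 fold change of 3.95 ± 0.34. Any induced library was 14.5- to 16.5-fold above any uninduced one. Of the 475 miRNAs tested, 10 had a higher log2 fold change. The neighbouring hairpin showed no change of that size: log2 fold changes were 0.35 ± 0.37 for miR-296-5p and 0.25 ± 0.30 for miR-296-3p. One arm of 3 was called higher and 0 lower, beside 28.8% of all tested miRNAs called, 21.1% higher and 7.79% lower. Libraries did not overlap, on the higher side, for miR-298-5p and miR-296-3p and for 38.3% of all tested, with 34.1% on the lower side. No group of wild type cells with doxycycline is among the 8 libraries, so the drug and the AGO1 it induces cannot be told apart.

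With AGO1 induced, the locus was also set against wild type. miR-298-5p, at 30955 against 14549.6 CPM, was 2.13-fold higher (log2 fold change 1.09 ± 0.31), and miR-296-3p 3.91-fold higher (1.97 ± 0.31). miR-296-5p had a log2 fold change of 0.37 ± 0.37. Both of the higher arms were called and their libraries did not overlap, beside 38.9% of all tested miRNAs called, 19.2% higher and 19.8% lower. Libraries did not overlap for 40.0% on the higher and 36.0% on the lower side, and nothing is read from these shares. The call of miR-298-5p was lost without wild type A (log2 fold change 1.35), wild type B (1.00) or induced B (1.17).

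**Figure D3:**
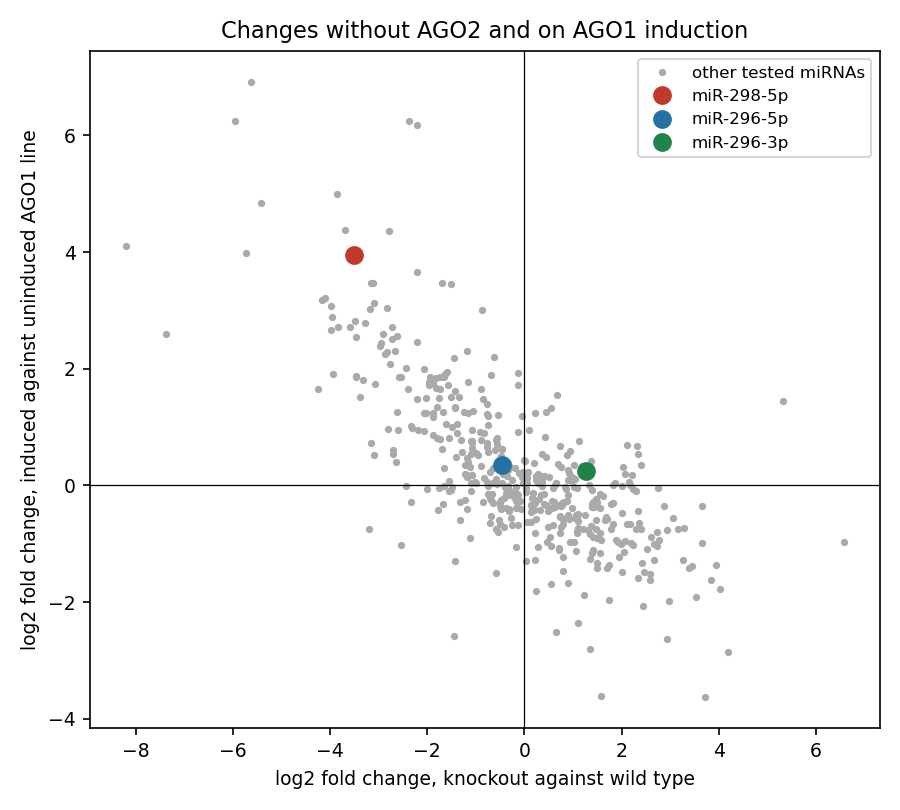
Log2 fold change of 475 miRNAs in the knockout against wild type (x axis) and in the induced against the uninduced AGO1 line (y axis), comparisons that have no library in common. miR-298-5p lies at -3.50 and 3.95, miR-296-5p near the origin at -0.45 and 0.35, and miR-296-3p at 1.27 and 0.25.

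The plot of both comparisons places miR-298-5p among miRNAs that were lower in the knockout than in wild type and higher in induced than in uninduced AGO1 cells. At least 4-fold lower in the knockout and at least 4-fold higher on induction were 40 of 475 miRNAs, or 8.42%. miR-298-5p had the highest mean CPM of these over the 8 libraries, 12196, followed by miR-410-3p of the Dlk1-Dio3 imprinted region at 11557. Of the 34 among them that matched RefSeq, 6 begin with G as miR-298-5p does, 12 with U, 11 with A and 5 with C. Over the 384 tested miRNAs that matched, the shares were 10.9% G, 38.5% U, 30.2% A and 20.3% C. Nothing is read from the first bases.

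A ratio of counts within a library does not depend on the scaling between libraries. miR-298 had 28.9 and 28.4 counts for each count of miR-296 (both arms summed) in wild type A and B. Knockout line 1 had a ratio of 1.52 and line 2 of 1.46, the uninduced cells 1.85 (A) and 1.54 (B), and the induced cells 23.2 (A) and 20.4 (B). The knockout and uninduced libraries were low, the wild type and induced libraries high, and no groups overlapped. How many other pairs of hairpins had ratios without overlap was not counted, so nothing is read from the lack of overlap. Knockout and uninduced were parted only by 1.523 in line 1 (725 and 476 counts) against 1.542 in uninduced B (586 and 380 counts). No counting interval was computed for the ratios, so nothing is read from that gap. Group means were 28.7 ± 0.374, 1.49 ± 0.0472, 1.69 ± 0.214 and 21.8 ± 1.94 (SD, n = 2 each). The knockout lines, which differed 2.22- to 2.67-fold in the level of each arm, had hairpin ratios of 1.52 and 1.46.

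Within the miR-296 hairpin the balance of the arms moved, and in another order of groups. The 5p arm held 44.5% of miR-296 counts in wild type A (95% exact Clopper-Pearson interval 39.9 to 49.3%, 449 counts) and 38.5% in wild type B (34.4 to 42.8%, 535 counts). In knockout lines 1 and 2 it held 18.1% (14.7 to 21.8%, 476 counts) and 15.5% (9.15 to 24.0%, 103 counts). The uninduced line had 17.6% (15.1 to 20.4%, 840 counts) and 18.7% (14.9 to 23.0%, 380 counts). The induced line had 17.6% (15.7 to 19.6%, 1510 counts) and 20.4% (18.4 to 22.4%, 1572 counts). Wild type stood apart from the 6 other libraries, which overlapped with each other. The 3p arm accordingly held a mean of 58.5 ± 4.27% in wild type, 83.2 ± 1.79% in the knockout, 81.8 ± 0.753% without and 81.0 ± 1.94% with doxycycline (SD, n = 2 each). The difference between induced and uninduced means, 0.834 percentage points, was within the spread of the libraries.

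Such a shift was seen for other hairpins too. Among 139 hairpins with at least 10 counts of both arms together in every library and 10 of the minor arm in all, the 5p share was lower in both knockout lines than in both wild type libraries for 38.8% and higher for 33.8%. It was lower in all 6 libraries without Ago2 for 27.3% and higher in all 6 for 21.6%. The mean change for miR-296 was -24.7 percentage points. Of the 139, 8 had as large or larger a drop and 12 as large or larger a change either way, miR-296 included. The median absolute change was 4.95 points. Shares that did not overlap were also found between uninduced cells and knockout (16.5% higher, 15.8% lower), between induced and uninduced cells (28.8% higher, 26.6% lower) and between induced cells and wild type (33.8% higher, 39.6% lower). miR-296 overlapped in the first and second of these and was lower in the last. Nothing is read from these shares for miR-296, whose counts were known.

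**Figure D4:**
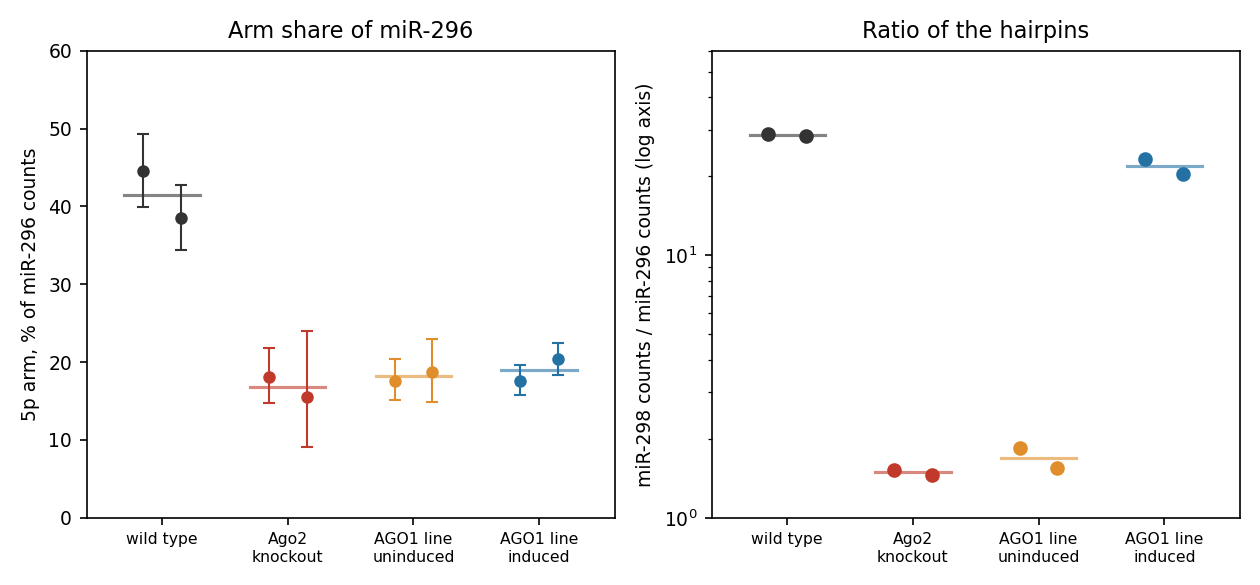
Left, share of the 5p arm in miR-296 counts per library, with 95% exact binomial intervals as bars; right, miR-298 counts divided by miR-296 counts on a log axis; lines are group means of 2 libraries. The arm share is 38.5 to 44.5% in wild type and 15.5 to 20.4% in the 6 other libraries, while the hairpin ratio is high in wild type and induced cells (20.4 to 28.9) and low in the rest (1.46 to 1.85).

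To place the divergence of the hairpins, neighbours at most 10 kb apart on 1 strand were compared across the genome, each by its most abundant tested arm that matched RefSeq, which gave 83 pairs. Mir296 and Mir298 differed by 4.77 on the log2 scale in the knockout comparison, against a median of 1.32 over the pairs, and 6 pairs (this one included) differed as much or more. On induction they differed by 3.70, against a median of 0.669, and 2 pairs reached that, the other being Mir130b and Mir301b at 4.49. Among the 66 pairs with both matched arms at a mean of 20 CPM or more, Mir296 and Mir298 had the largest difference on induction. Mir301b entered by its 5p arm, at a mean of 12.8 CPM. Its tested 3p arm did not enter, though it had a mean of 289.5 CPM and log2 fold changes of -5.42 (knockout) and 4.84 (induction). Those of miR-130b-3p were -0.38 and -0.13. The ranks therefore hold only for the arms that matched. Pairs that share a hairpin are not independent, and the locus was chosen with its values known, so these ranks carry no test.

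**Figure D5:**
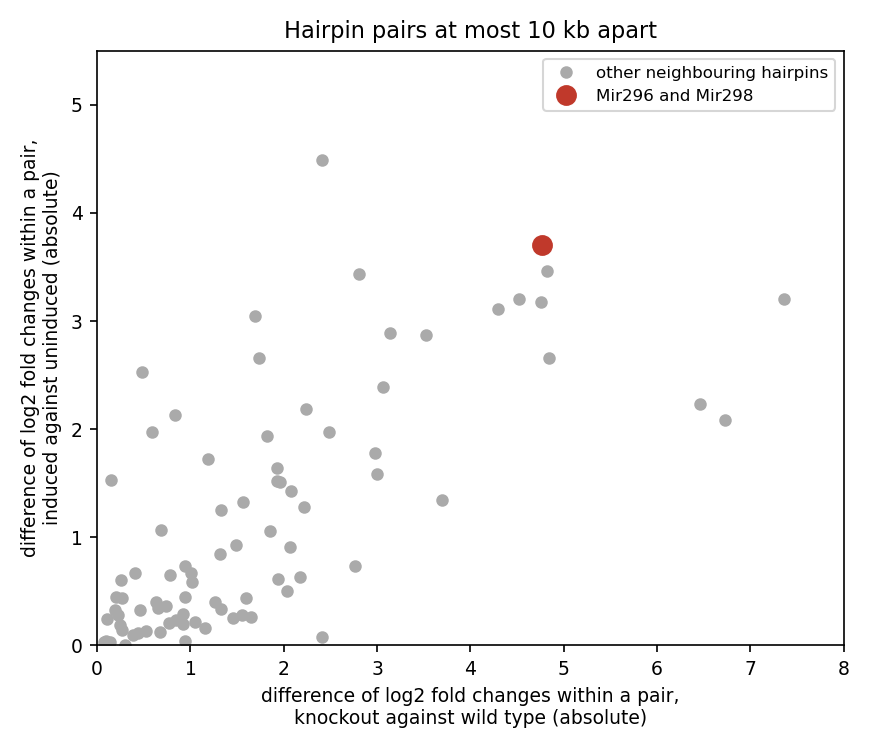
Absolute difference of log2 fold changes between neighbouring hairpins, in the knockout against wild type (x axis) and in the induced against the uninduced line (y axis), 1 point for each of 83 pairs. Mir296 and Mir298 lie at 4.77 and 3.70, toward the upper right, while the medians over pairs are 1.32 and 0.669.

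Likeness of pattern was measured as Pearson's r of log2 CPM over the 8 libraries, among 382 other miRNAs with a mean of at least 20 CPM. It is a description, since the 8 points fall in 4 groups and share library and depth. miR-298-5p was most like miR-323-3p (r = 0.989) and miR-382-5p (0.989) of the Dlk1-Dio3 region on chromosome 12 and miR-3057-5p (0.987) on chromosome 10. Those changed less: log2 fold changes were -1.97, -1.97 and -2.90 in the knockout and 1.72, 1.78 and 2.60 on induction. miR-296-5p was most like miR-154-5p (0.966), miR-127-3p (0.916) and miR-337-5p (0.900), all on chromosome 12, and miR-296-3p most like miR-193b-3p (0.975), miR-3968 (0.970) and miR-411-3p (0.928). Within the locus, r was 0.660 for miR-298-5p with miR-296-5p, -0.0056 for miR-298-5p with miR-296-3p, and 0.444 for the arms of miR-296. The miRNAs named above have the highest r of the 382, so their values cannot be set against those within the locus.

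The sequences of the miRNAs most like miR-298-5p are shown to compare their seeds, in capitals, with its own.
mmu-miR-323-3p: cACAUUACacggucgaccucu
mmu-miR-382-5p: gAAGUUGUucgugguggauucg
mmu-miR-3057-5p: aUUGGAGCugagauucugcgggau
None of the 3 shares the seed of miR-298-5p. 

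Other imprinted miRNAs gave a frame for the locus. These lists were chosen with earlier results of these data known, so their calls and adjusted p values are a description. In the Dlk1-Dio3 region, expressed from the maternal chromosome, 77 of 113 listed arms were tested, of which 45 were called lower and 12 higher in the knockout (median log2 fold change -1.17, against -0.12 over all tested, of which 32.2% were called lower and 25.5% higher). On induction 39 were called higher and 3 lower (median 0.93, against 0.03 over all tested, of which 21.1% were called higher and 7.79% lower). In the Sfmbt2 repeat cluster, expressed from the paternal chromosome, 20 of 41 tested arms were called higher and 3 lower in the knockout (median 1.08), and 1 higher and 1 lower on induction (median -0.088), beside the same shares over all tested. Near-identical copies make single members of that cluster uncertain. Of the miRNAs of other imprinted genes, both arms of miR-675 (H19) had 0 or 1 count in all 8 libraries together, and miR-483-5p and miR-483-3p (Igf2) had 3 and 0.

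miR-335, in the paternally expressed Mest gene on chromosome 6, was well detected. For its 5p arm wild type A held 288 CPM and B 187, knockout line 1 held 788 and line 2 held 900.5, uninduced A 869 and B 956, and induced A 761 and B 724. miR-335-5p rose by 1.83 ± 0.24 on the log2 scale in the knockout (edgeR adjusted p = 0.000168) and miR-335-3p by 1.25 ± 0.18 (edgeR adjusted p = 0.000361). As for the other lists, the p values of miR-335 are a description. All 6 libraries without Ago2 were higher than wild type for both arms, as for miR-296-3p. How many of all tested miRNAs had this pattern was not counted. Libraries did not overlap on the higher side for 34.3% of them in the knockout and 40.0% in the induced line, each against wild type. On induction the log2 fold changes were -0.30 ± 0.23 (edgeR adjusted p = 0.353) and -0.50 ± 0.18 (edgeR adjusted p = 0.0589) for the 5p and 3p arm. The 3p arm was called with DESeq2 size factors, without TMM factors, by the DESeq2 Wald test, with only the compared groups, without either knockout line and in both fits of 6 libraries. It was not called under the other alternatives run.

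The miRNAs reported together with miR-296 as acting on pluripotency factors were not called in any of the 4 comparisons. They too were listed with earlier results of these data known, so their adjusted p values are a description. miR-134-5p stood at 1010.2 ± 96.7 CPM in wild type, 977 ± 343 in the knockout, 1388 ± 247 without and 1527 ± 190.1 with doxycycline, with a log2 fold change of -0.040 ± 0.25 in the knockout (edgeR adjusted p = 0.894). miR-470-5p stood at 89.0 ± 10.1, 122 ± 159, 221 ± 36.2 and 216 ± 32.0 CPM in the same order, with 0.59 ± 0.70 in the knockout (edgeR adjusted p = 0.480). Its knockout values, 235 CPM in line 1 and 10.1 in line 2, rest on 94 and 2 counts. miR-134-5p stood at 1219.9 CPM in line 1 and 734 in line 2.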

How the data were processed

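Trizol RNA went into TruSeq small RNA libraries, per the labels' protocols. The deposited table gives raw counts of reads for each mature miRNA. The submitters' processing notes list Bowtie (no version) and mm10. Of 2 header lines the first, which matches the sample titles, named the libraries. The second gives the first wild type column the name of library B, so which wild type library is A and which is B is in doubt, while both are wild type. The sources used here do not state trimming, the handling of mismatches and multiple matches, or the annotation.

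The members and lists were chosen with earlier results of these data known, and the comparisons of neighbouring hairpins, of arm shares over hairpins and of both contrasts after the values were seen. The 475 miRNAs that passed edgeR's filterByExpr were fitted together (8 libraries, 4 groups, TMM factors, quasi-likelihood F test, 2-sided, Benjamini-Hochberg over the 475 in each of 4 comparisons). The code was tested on simulated data. R 4.3.3, edgeR 4.0.16, DESeq2 1.42.0 and SciPy 1.17.1 were used.

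Named miRNAs are the 4 arms, the 3 most like each tested arm, and all of the small lists. Dlk1-Dio3 members were taken by RefSeq position between Dlk1 and Dio3, Sfmbt2 members by name. Others named (miR-410-3p, Mir130b and Mir301b) were chosen after their values were seen. Alternatives were other size factors or none, DESeq2, other filters, 2 groups only, each library left out, thinning by sampling without replacement, and a replicate block.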

Additional observations from a re-analysis of the deposited data

How the results depend on the processing

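miR-298-5p was called lower in the knockout and higher on induction under all alternatives run. Its log2 fold change with 1 library left out was 0.12 to 1.41 for the uninduced line against the knockout and 1.00 to 1.35 for the induced line against wild type. For miR-296-3p these were 0.57 to 1.75 in the knockout and -0.027 to 1.15 for uninduced against knockout. For miR-296-5p they were -1.38 to 0.060 and -0.029 to 1.41. With every library thinned to 163467 counts, miR-296-5p in the induced line against wild type turned to -0.030, the 5p share of miR-296 in the induced line was 15.9% and that of miR-298 100%, and wild type and knockout had ratios of miR-298 to miR-296 of 26.6 and 1.43. Such draws rest on few counts. Without TMM factors the medians of all miRNAs moved from -0.12 to 0.16 (knockout; 155 higher and 111 lower in place of 121 and 153), from -0.01 to -0.19 (uninduced against knockout) and from 0.03 to -0.17 (induction; 83 and 64 in place of 100 and 37). miR-335 in the uninduced line against the knockout then turned to -0.074 (5p) and -0.023 (3p). Calls over all miRNAs, 274, 0, 137 and 185 in the order of the text, were 163, 0, 67 and 102 thinned. For uninduced against knockout they were 14 without a filter, 8 by DESeq2 and 2 without TMM factors. With 1 library left out they ranged from 195 to 274 in the knockout, from 0 to 61 for uninduced against knockout, from 57 to 200 on induction and from 75 to 258 against wild type. Differences of A and B correlated between groups at 0.081, -0.0104 and 0.235, so the letters were not taken as pairs. With the letters as a replicate block in 6 libraries, 192 miRNAs were called on induction, 202 without it (a fit added after seeing the data), and the log2 fold change of miR-298-5p was 3.94 in both. Causes were not tested.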
